A study of Homo sapiens with 9 samples.

Results

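RPIA and 5 further enzymes of the pentose phosphate pathway (PGLS, PGD, RPE, TKT and TALDO1) were followed in MDA-MB-231, an established human line of triple-negative breast cancer cells, after transfection of small RNAs. RPIA was chosen by its low values with Qmimic against AllStar in these arrays, and the other 5 as enzymes of the same pathway, with earlier results of these arrays known. The members were every probe set that the array annotation maps to 1 of these 6 symbols and to no other gene, which gave 16 of the 54613 probe sets that are not controls and 6 of 19775 named genes. RPIA and TALDO1 were measured on 1 probe set each, PGD and TKT on 3 each, and PGLS and RPE on 4 each. A further probe set that names RPE together with its copy RPEL1 was left out, since it cannot be given to 1 gene.

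There were 3 groups of 3 biological replicates. Cells were given Qmimic, Dmimic or the negative control AllStar, each at 10 nM with the lipid reagent Lipofectamine 2000, and total RNA was taken after 48 h from separate wells. All groups were therefore transfected cells of 1 line, and no untransfected cells are among them. According to its title, the series deals with miR-34a, a microRNA, and with AXL, a receptor tyrosine kinase. The labels do not spell out the letters Q and D or give the sequence of either mimic.

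The mature 5p strand of human miR-34a is printed because the study is about this microRNA, with the seed (bases 2 to 8) that pairs with target messages in capitals. RefSeq places it at chr1:9151735-9151756 on the minus strand of GRCh38.p14. Transcript sequences were not used here, so no target site in RPIA was looked for.
hsa-miR-34a-5p: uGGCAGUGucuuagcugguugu

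The pentose phosphate pathway branches off glycolysis at glucose 6-phosphate. Its oxidative branch yields NADPH, the reducing power for lipid synthesis and for defence against oxidants, and ends in ribulose 5-phosphate. The non-oxidative branch turns ribulose 5-phosphate into ribose 5-phosphate, the sugar of nucleotides, and links both sugars back to glycolysis by reversible transfers of carbon units. Dividing tumour cells are known to draw on both products.

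Values are log2 signals per probe set after RMA, the authors' normalisation, so a difference of 1 is a 2-fold change. Levels are compared within a probe set only, since different probes bind with different strength. AllStar replicate 3 was unlike the rest of the set. It correlated with the remaining 8 arrays at 0.974 to 0.981, while those 8 correlated with each other at 0.993 to 0.998, and its 18S ribosomal RNA signal averaged 8.73, against 5.27 to 6.26 elsewhere. Results are therefore given with all 9 arrays and without that array. The mesenchymal marker VIM lay at 13.53 to 13.71 over the 9 arrays, and the epithelial marker CDH1 at 3.44 to 4.02. Of the luminal markers, the progesterone receptor PGR lay at 3.64 to 4.72, ESR1 at 6.74 to 7.45, EPCAM at 7.25 to 8.36 and GATA3 at 7.45 to 8.61. Such signals do not show by themselves whether a message is present.

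RPIA, ribose 5-phosphate isomerase, makes ribose 5-phosphate from ribulose 5-phosphate. Its log2 level was 7.80, 8.26 and 8.29 with Qmimic and 8.53, 8.67 and 8.10 with Dmimic, against 9.17, 9.21 and 9.02 with AllStar. Each of the 6 mimic arrays lay below each of the 3 AllStar arrays, while Qmimic and Dmimic overlapped. The means were 8.12 ± 0.27 with Qmimic, 8.43 ± 0.30 with Dmimic and 9.13 ± 0.10 with AllStar (SD, n = 3 each). In both mimic groups 1 array was lower than its partners, Qmimic replicate 1 and Dmimic replicate 3. All 6 mimic arrays lay below all 3 AllStar arrays on 3.83% of all probe sets.

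RPIA was picked for its low values with Qmimic, so that contrast is given as a description with no test. Qmimic minus AllStar was -1.02 (SE 0.17), a level 2.02-fold lower, and -1.07 (SE 0.17), 2.11-fold lower, without AllStar replicate 3. Among the 19775 genes, each taken at its probe set with the highest mean, this was the 4th lowest change with all 9 arrays and the 3rd lowest without that array. AllStar replicate 3 was itself only 0.17 below the mean of AllStar replicates 1 and 2 on RPIA (a difference of -0.17). The arrays measure the RNA of whole wells, so less RPIA message per cell and fewer cells that carry it cannot be told apart.

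Dmimic minus AllStar was -0.70 on RPIA (SE 0.17, 95% interval -1.08 to -0.33), a level 1.63-fold lower that did not pass the adjustment over all probe sets (adjusted p = 0.155, limma). Without AllStar replicate 3 it was -0.76 (SE 0.17, 1.69-fold lower, adjusted p = 0.0523, limma), again short of the threshold. With array weights estimated from the data, which let a noisy array count for less, the change was -0.73 and passed (adjusted p = 0.00294, limma). Since this comparison uses the same AllStar arrays as the one that picked RPIA, it adds no independent support. Its place was 62nd lowest of 19775 genes with all 9 arrays and 100th without that array.

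The comparison of the mimics with each other rests on the same 3 Qmimic arrays whose low values picked RPIA, so it is also given with no test. Qmimic minus Dmimic was -0.31 on RPIA, with a 95% interval of -0.69 to 0.06. The interval thus reached from a lower level with Qmimic to one slightly higher on the log2 scale. Without AllStar replicate 3, which enters only through the estimate of the spread, the interval was -0.66 to 0.03.

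**Figure D1:**
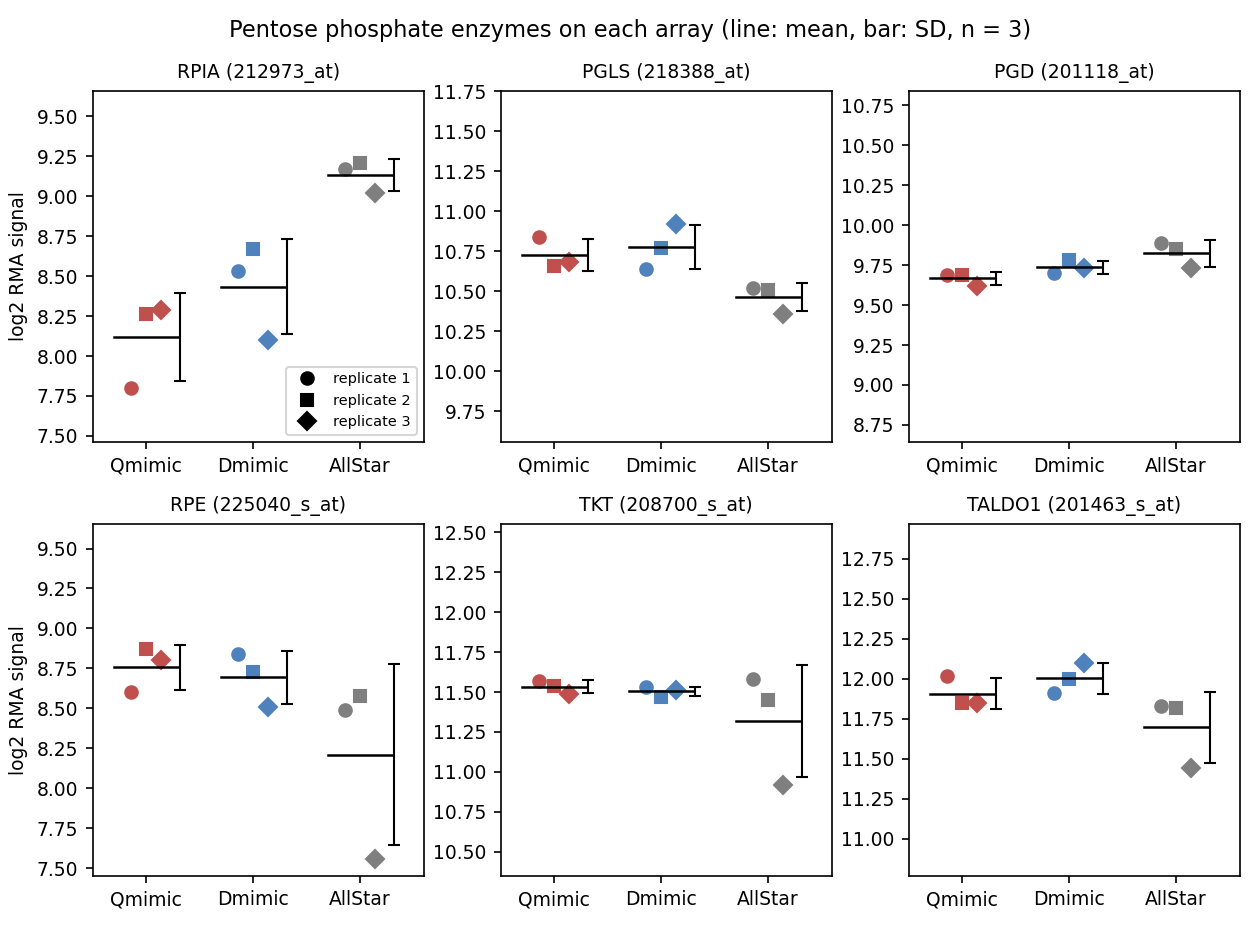
The log2 RMA signal of each member's probe set with the highest mean is plotted for Qmimic, Dmimic and AllStar, with the 3 replicates as symbols, the mean as a line and the SD as a bar; every panel spans the same height in log2 units around its own mean. RPIA lies lower on all 6 mimic arrays, and AllStar replicate 3 (diamond) lies low on RPE, TKT and TALDO1.

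In the oxidative branch, PGLS hydrolyses 6-phosphogluconolactone. On the probe set with the highest mean its level was 10.84, 10.66 and 10.68 with Qmimic and 10.64, 10.77 and 10.92 with Dmimic, against 10.52, 10.51 and 10.36 with AllStar. All 6 mimic arrays lay above all 3 AllStar arrays, and the same held on a second PGLS probe set (10.29 to 10.38 with Qmimic, 10.30 to 10.59 with Dmimic and 9.99 to 10.15 with AllStar). Over all probe sets 8.33% showed this separation upwards. The differences from AllStar were 0.26 and 0.26 with Qmimic and 0.31 and 0.35 with Dmimic, 1.19-fold to 1.28-fold, and none passed (adjusted p = 0.202 to 0.274, limma). Without AllStar replicate 3 they were 0.21 and 0.21 with Qmimic and 0.26 and 0.31 with Dmimic, with an adjusted p = 0.0983 as the smallest (limma).

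The other 2 PGLS probe sets were dim, at a mean of 5.82 and 4.31, and did not share the upward difference. The 5.82 one differed by 0.10 with Qmimic and 0.11 with Dmimic with all 9 arrays, and by -0.11 with each without AllStar replicate 3. The 4.31 one differed by -0.44 and -0.33, and by -0.13 and -0.02 without that array, which alone lay 0.93 above AllStar replicates 1 and 2 there.

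PGD, 6-phosphogluconate dehydrogenase, makes ribulose 5-phosphate and a molecule of NADPH. On its bright probe set the level was 9.69, 9.69 and 9.62 with Qmimic and 9.70, 9.78 and 9.73 with Dmimic, against 9.89, 9.85 and 9.73 with AllStar. The Qmimic arrays lay below every AllStar array, as on 10.8% of all probe sets, and the Dmimic arrays overlapped with AllStar. Qmimic minus AllStar was -0.16 (SE 0.08, adjusted p = 0.336, limma) and -0.21 (SE 0.06, adjusted p = 0.13, limma) without AllStar replicate 3. Dmimic minus AllStar was -0.09 (adjusted p = 0.612, limma) and -0.13 (adjusted p = 0.327, limma) without it. The remaining PGD probe sets, with means of 5.81 and 4.38, differed from AllStar by -0.22 to -0.04 with all 9 arrays and by -0.17 to 0.08 without AllStar replicate 3.

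In the non-oxidative branch, RPE is the epimerase that turns ribulose 5-phosphate into xylulose 5-phosphate, and so shares its substrate with RPIA. On the probe set with the highest mean its level was 8.60, 8.87 and 8.80 with Qmimic and 8.84, 8.73 and 8.51 with Dmimic, against 8.49, 8.58 and 7.56 with AllStar. The value of 7.56 came from AllStar replicate 3, and all 3 lay below the lowest Qmimic array, as on 14.1% of all probe sets, the nearest only just. Qmimic minus AllStar was 0.55 (SE 0.23, adjusted p = 0.295, limma) with all 9 arrays and 0.22 (SE 0.11, adjusted p = 0.316, limma) without that array. Dmimic minus AllStar was 0.48 and 0.16 (adjusted p = 0.413 and adjusted p = 0.522, limma).

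A like shift by AllStar replicate 3 was seen on 2 further RPE probe sets, where it lay at -0.54 and -0.72 relative to AllStar replicates 1 and 2. Their differences from AllStar were 0.15 to 0.37 with all 9 arrays and -0.03 to 0.13 without it. The last RPE probe set, at a mean of 3.02, differed by -0.05 to -0.01 in both fits. The size of the RPE differences with all 9 arrays thus rested largely on AllStar replicate 3, while 5 of the 6 values of the bright probe sets stayed positive without it.

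TKT, transketolase, moves 2-carbon units between sugar phosphates with thiamine diphosphate as cofactor. Its level was 11.57, 11.54 and 11.49 with Qmimic and 11.53, 11.47 and 11.51 with Dmimic, against 11.58, 11.45 and 10.92 with AllStar. Apart from AllStar replicate 3 all arrays lay within the same narrow range. With all 9 arrays the difference from AllStar was 0.22 with Qmimic and 0.19 with Dmimic (adjusted p = 0.418 and adjusted p = 0.557, limma). Without that array it was 0.02 with Qmimic (95% interval -0.13 to 0.17) and -0.01 with Dmimic (95% interval -0.16 to 0.14). The intervals leave room for changes of up to 0.17 on the log2 scale. The second bright TKT probe set gave 0.07 and 0.06 with all 9 arrays and 0.01 and 0.00 without it, and the dim one, at a mean of 5.62, gave -0.02 and -0.01, and -0.01 and -0.01 without it.

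TALDO1, transaldolase, moves 3-carbon units between sugar phosphates. Its level was 12.02, 11.85 and 11.85 with Qmimic and 11.91, 12.00 and 12.10 with Dmimic, against 11.83, 11.82 and 11.44 with AllStar. Each mimic array lay above each AllStar array, as on 8.33% of all probe sets, though the gap between the lowest mimic array and the highest AllStar array was small. Qmimic minus AllStar was 0.21 (SE 0.12, adjusted p = 0.371, limma) and 0.08 (SE 0.08, adjusted p = 0.654, limma) without AllStar replicate 3. Dmimic minus AllStar was 0.31 (SE 0.12, adjusted p = 0.332, limma) and 0.18 (SE 0.08, adjusted p = 0.295, limma) without it.

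**Figure D2:**
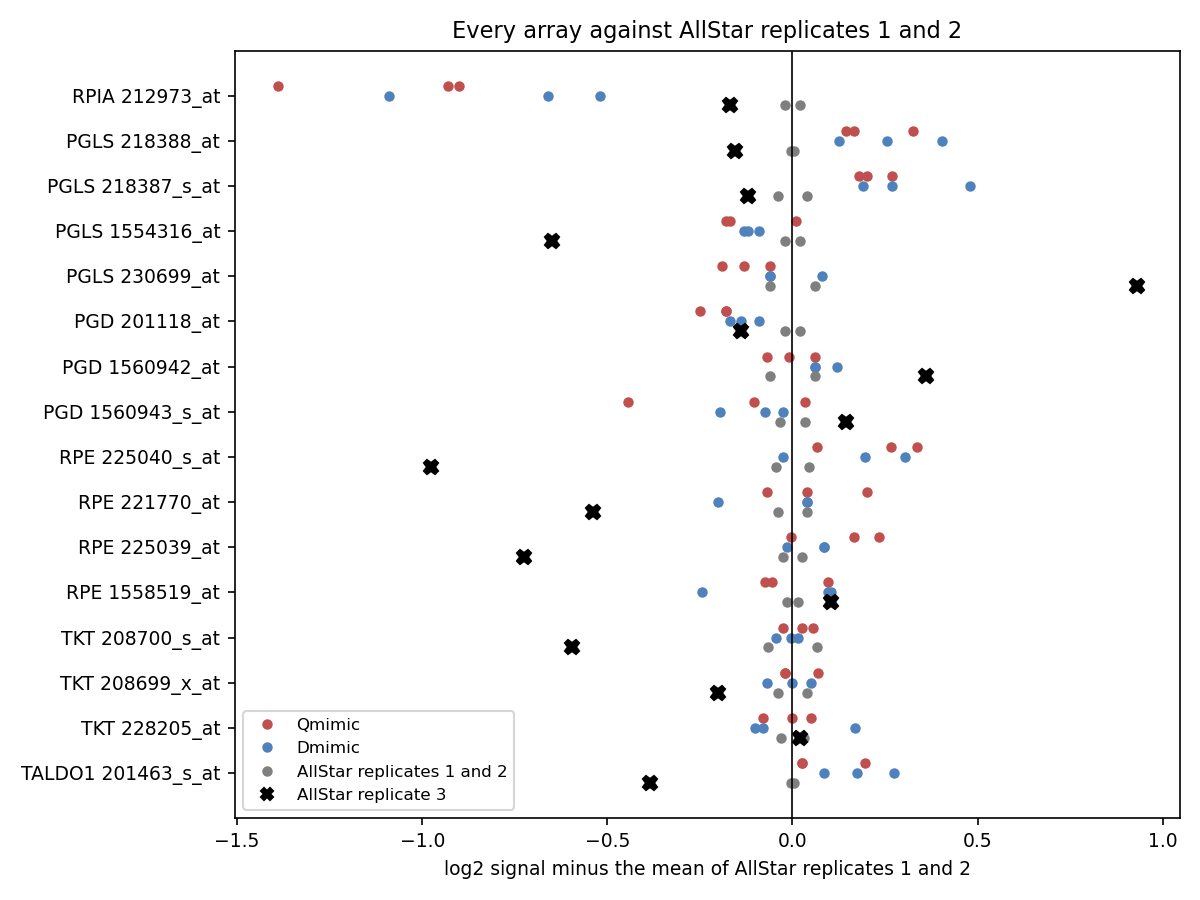
Each point is 1 array's log2 signal minus the mean of AllStar replicates 1 and 2, for the 16 probe sets, with AllStar replicate 3 as a black cross. The cross lies between -0.98 and -0.54 on 3 RPE probe sets and at -0.60 on a TKT probe set, but at -0.17 on RPIA, where the mimic arrays lie lower.

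The shift of AllStar replicate 3 was also seen over all probe sets. For probe sets at a mean of 8 to 10 on AllStar replicates 1 and 2, the median difference of AllStar replicate 3 from that mean was -0.45, and the middle 80% ran from -0.85 to -0.03. The members lay at -0.17 (RPIA), -0.14 (PGD), -0.54 and -0.98 (RPE) in that range of levels. At a level of 10 to 12 the median was -0.34 with a middle 80% of -0.59 to -0.10, and the members lay at -0.15 and -0.12 (PGLS), -0.60 and -0.20 (TKT) and -0.39 (TALDO1). Of these 9 values, -0.98 for RPE and -0.60 for TKT lay outside the middle 80% of their range of levels. What part the high 18S signal of that array has in these values was not tested.

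Counted over the members, limma called 0 of 16 probe sets with Qmimic with all 9 arrays, as it called 0% of all probe sets, at an adjusted p under 0.05 and a change of at least 1.5-fold. RPIA is left out of the counts at an unadjusted p against AllStar, since it was picked on these arrays. Of the 15 other probe sets, 3 had an unadjusted p under 0.05, against 16.3% of all probe sets. Without AllStar replicate 3 limma called 1 of the 16, RPIA itself, against 0.54% of all probe sets. Nothing is read from that call because RPIA was picked there. Again 3 of the 15 others had an unadjusted p under 0.05, against 18.2%. With Dmimic limma called 0 of 16 with all 9 arrays, against 0.00549% of all probe sets. An unadjusted p under 0.05 was found for 3 of the 15 others, against 12.8%. When AllStar replicate 3 was left out, limma called 0 of 16 with Dmimic, against 0.864%. Of the 15 others, 2 then had an unadjusted p under 0.05, against 17.1%. Between the mimics it called 0 of 16 in both fits, against 0% and 0.0806% of all probe sets. An unadjusted p under 0.05 was found for 0 of them in each, against 2.41% and 11.1%.

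The 15 probe sets other than that of RPIA spanned -0.44 to 0.55 with Qmimic and -0.33 to 0.48 with Dmimic with all 9 arrays, with medians of 0.10 and 0.11. Without AllStar replicate 3 they spanned -0.21 to 0.22 and -0.13 to 0.31, with medians of 0.01 and -0.01, where the median of all probe sets was -0.01 with Qmimic and 0.00 with Dmimic. Between Qmimic and Dmimic they spanned -0.11 to 0.10. On the bright PGD probe set every Qmimic array lay below every Dmimic array, as on 8.95% of all probe sets, at a difference of -0.07 (adjusted p = 1, limma).

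**Figure D3:**
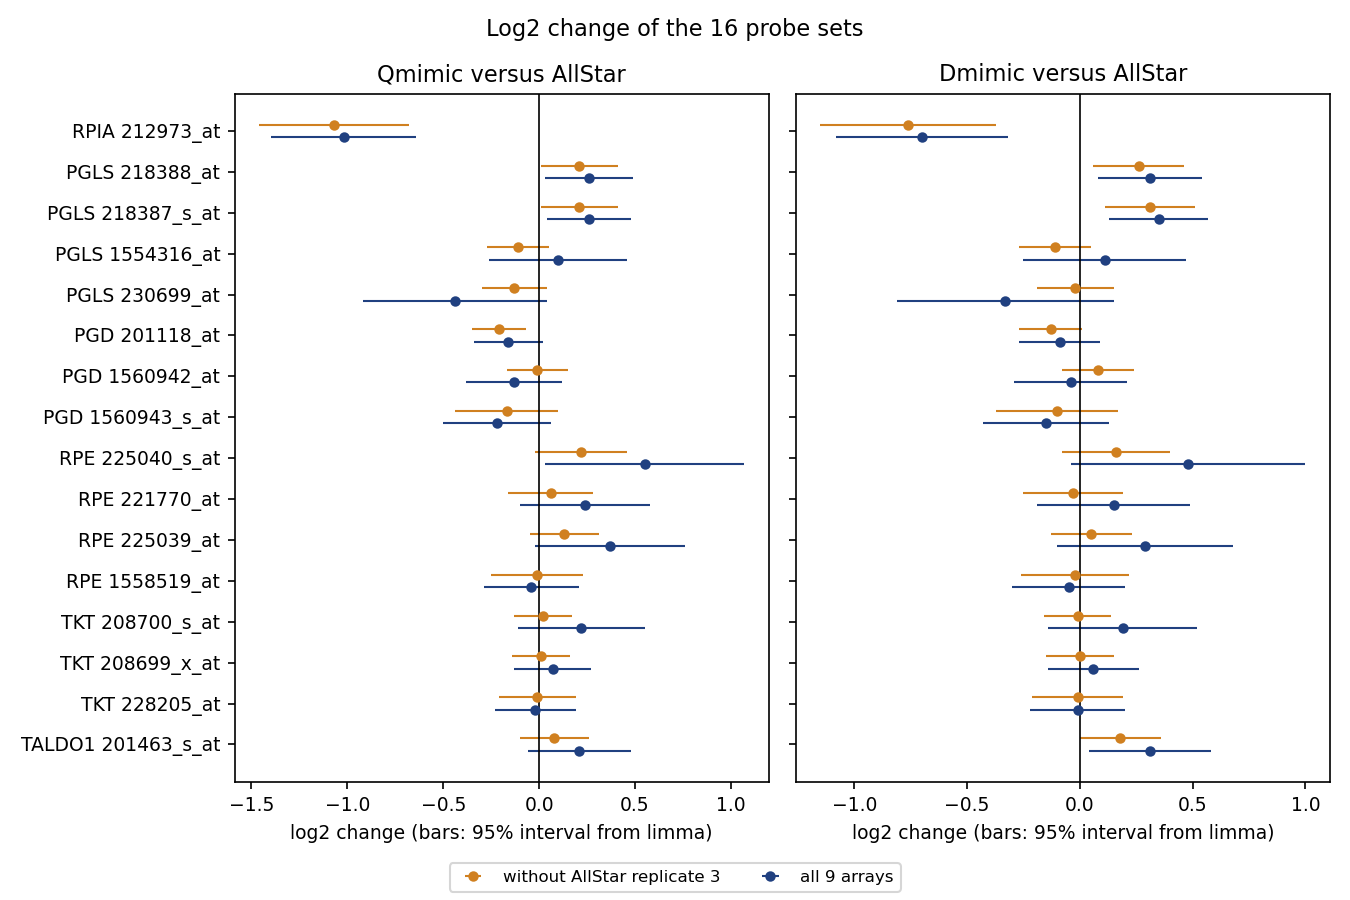
Log2 changes of the 16 probe sets against AllStar are plotted with their 95% intervals from limma, for Qmimic (left) and Dmimic (right), without AllStar replicate 3 (orange) and with all 9 arrays (blue). RPIA lies at -1.07 and -1.02 with Qmimic and at -0.76 and -0.70 with Dmimic; the intervals of the RPE probe sets narrow, and their values approach 0, when the array is left out.

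Within the 6 mimic arrays, the deviation of RPIA from its group mean ran against those of TALDO1 (r = -0.87) and PGLS (r = -0.82) and with that of RPE (r = 0.89). The arrays low on RPIA, Qmimic replicate 1 and Dmimic replicate 3, were the highest of their groups on TALDO1 and PGLS. With 6 arrays such values were common: over 11314 genes with a mean of at least 6, r with RPIA ran from -0.93 at the 5th to 0.93 at the 95th percentile. The r of PGD was -0.05 and that of TKT -0.61.

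The genes whose level followed that of RPIA most closely over the 9 arrays were NEURL1B (r = 0.977), SLC39A9 (r = 0.975), E2F2 (r = 0.969), EMC9 (r = 0.964) and CNOT6 (r = 0.964), out of 11314 genes with a mean of at least 6. Their means were lower with both mimics, which follows from picking them by r with RPIA. For NEURL1B they were 6.90 with Qmimic and 7.04 with Dmimic against 7.69 with AllStar. For CNOT6, a deadenylase that shortens the poly-A tails of messages, the means were 8.09, 8.38 and 8.93. Over the 8 arrays without AllStar replicate 3 the closest were CNOT6 (r = 0.996), ARHGAP19 (r = 0.993), CTDSP2 (r = 0.99), FBXO45 (r = 0.987) and ABHD17C (r = 0.984). Only CNOT6 was in both lists, and the r of FBXO45 was 0.029 over all 9 arrays. The 95th percentile of r over these genes was 0.715 with 9 and 0.837 with 8 arrays, and the points share 3 group means.

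Genes of neighbouring pathways were taken from 5 lists with 74 measured genes, each at its probe set with the highest mean. Limma called 0 of the 74 with either mimic in either fit. Calls were rare among all genes too. With all 9 arrays their share was 0% for Qmimic and 0.0101% for Dmimic, the latter all upwards. Without AllStar replicate 3, Qmimic had 0.44% of genes called upwards and 0.253% downwards. For Dmimic these shares were 0.622% upwards and 0.647% downwards. With so few calls among all genes, 0 of 74 does not set these lists apart. At an unadjusted p under 0.05, Qmimic gave 7 higher and 3 lower genes with all 9 arrays, and Dmimic 13 higher and 3 lower, where 19.7% and 17.3% of all 19775 genes had such a p. Without AllStar replicate 3, Qmimic gave 6 higher and 12 lower genes, and Dmimic 8 higher and 15 lower, where 20.9% and 21.3% of all genes did. The values that follow are without AllStar replicate 3, with adjusted p from limma.

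Of 12 further pentose and ribose phosphate genes, 5 were positive and 7 negative with Qmimic (median 0.00) and 4 positive and 8 negative with Dmimic (median -0.05), against 7 and 6 positive with all 9 arrays. RBKS, the kinase that makes ribose 5-phosphate from free ribose, differed by 0.40 with Qmimic and by 0.59 with Dmimic (adjusted p = 0.25 and adjusted p = 0.103). Its Dmimic level was 8.69 on replicate 3, against 8.04 and 8.18 on replicates 1 and 2. PRPSAP1, a partner of the synthetase that takes ribose 5-phosphate into nucleotides, differed by -0.16 (adjusted p = 0.244) and -0.15 (adjusted p = 0.294). H6PD, which runs the oxidative steps in the endoplasmic reticulum, differed by 0.03 with Qmimic and -0.27 with Dmimic (adjusted p = 0.931 and adjusted p = 0.23), and the sedoheptulose kinase SHPK by 0.08 and 0.11. The synthetases PRPS1 and PRPS2 differed by -0.08 and 0.04 with Qmimic and by -0.12 and -0.13 with Dmimic.

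The next list held 14 genes drawn up around NADPH supply outside the pathway, though not all of their enzymes make NADPH. Of these, 10 were negative with Qmimic (median -0.12) and 12 with Dmimic (median -0.12), against 6 and 7 with all 9 arrays. The mitochondrial NAD kinase NADK2 differed by -0.28 with each mimic (adjusted p = 0.0663 and adjusted p = 0.0574), but by 0.10 with each with all 9 arrays. The cytosolic isocitrate dehydrogenase IDH1 differed by 0.37 with Qmimic (adjusted p = 0.0683) and 0.20 with Dmimic, and the folate enzymes ALDH1L1 and MTHFD1 by -0.22 and -0.17 with Qmimic and by -0.12 and -0.28 with Dmimic. With all 9 arrays ALDH1L1 differed by -0.03 with Qmimic and 0.07 with Dmimic, and MTHFD1 by -0.06 and -0.17. The transhydrogenase NNT differed by -0.20 and -0.23, and by 0.12 and 0.08 with all 9 arrays.

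In the list of NRF2 and the glutathione and thioredoxin systems, 10 of 16 genes were positive with Qmimic (median 0.02) and 12 of 16 with Dmimic (median 0.11), with 15 and 16 positive with all 9 arrays. SLC7A11, the cystine carrier, differed by 0.20 with Qmimic and by 0.57 with Dmimic (adjusted p = 0.559 and adjusted p = 0.094). Its Dmimic level was 10.01 on replicate 3, against 9.49 and 9.32 on replicates 1 and 2. TXNRD1, which spends NADPH to reduce thioredoxin, differed by -0.05 and 0.30 (adjusted p = 0.796 and adjusted p = 0.0808). GCLC differed by -0.22 with Qmimic (adjusted p = 0.118) but by 0.05 with all 9 arrays, NQO1 by -0.23 and HMOX1 by 0.25, and GSS, the glutathione synthetase, by 0.20 with Dmimic (adjusted p = 0.202). For Qmimic minus Dmimic 12 of the 16 were negative (median -0.09), with 4 lower at an unadjusted p under 0.05, against 11.7% of all genes in either direction, and an adjusted p = 0.113 as the smallest.

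Of 20 genes of purine and pyrimidine synthesis, whose products contain ribose 5-phosphate, 17 were negative with Qmimic (median -0.11) and 15 with Dmimic (median -0.12), against 11 and 13 with all 9 arrays. RRM2, a subunit of the reductase that turns ribonucleotides into deoxyribonucleotides, differed by -0.75 with Qmimic and by -0.81 with Dmimic (adjusted p = 0.109 and adjusted p = 0.0829). Its partner RRM1 differed by -0.36 and -0.58 (adjusted p = 0.104 with Dmimic), and the thymidylate synthase TYMS by -0.53 and -0.67 (adjusted p = 0.143 and adjusted p = 0.0702). RRM2B, the p53-inducible subunit, differed by 0.37 with Qmimic (adjusted p = 0.0564) and 0.24 with Dmimic, and CTPS2 by 0.37 and 0.17. With all 9 arrays these were 0.71 and 0.58 for RRM2B and 0.55 and 0.35 for CTPS2, and -0.20 and -0.42 for RRM1. For RRM2 they were -0.66 and -0.72, and for TYMS -0.41 and -0.56. Dmimic replicate 3 was the lowest Dmimic array on RRM2 (10.75, against 11.52 and 11.61). The same held on RRM1 (10.41, against 10.97 and 11.07) and TYMS (11.26, against 11.82 and 11.95).

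Of 12 genes of upper glycolysis, 4 were positive and 8 negative with Qmimic (median -0.02) and 5 positive and 7 negative with Dmimic (median -0.07). With all 9 arrays 9 were positive and 3 negative with Qmimic, and 7 positive and 5 negative with Dmimic. TIGAR, which lowers fructose 2,6-bisphosphate and so favours the pentose phosphate pathway, differed by 0.20 with Qmimic and by 0.25 with Dmimic (adjusted p = 0.131 and adjusted p = 0.0756), and by 0.49 and 0.53 with all 9 arrays. TPI1 differed by -0.18 and -0.24, HK1 by -0.08 and -0.19, and ALDOC by 0.19 and 0.13. The medians of all 19775 genes were -0.01 with Qmimic and 0.01 with Dmimic.

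**Figure D4:**
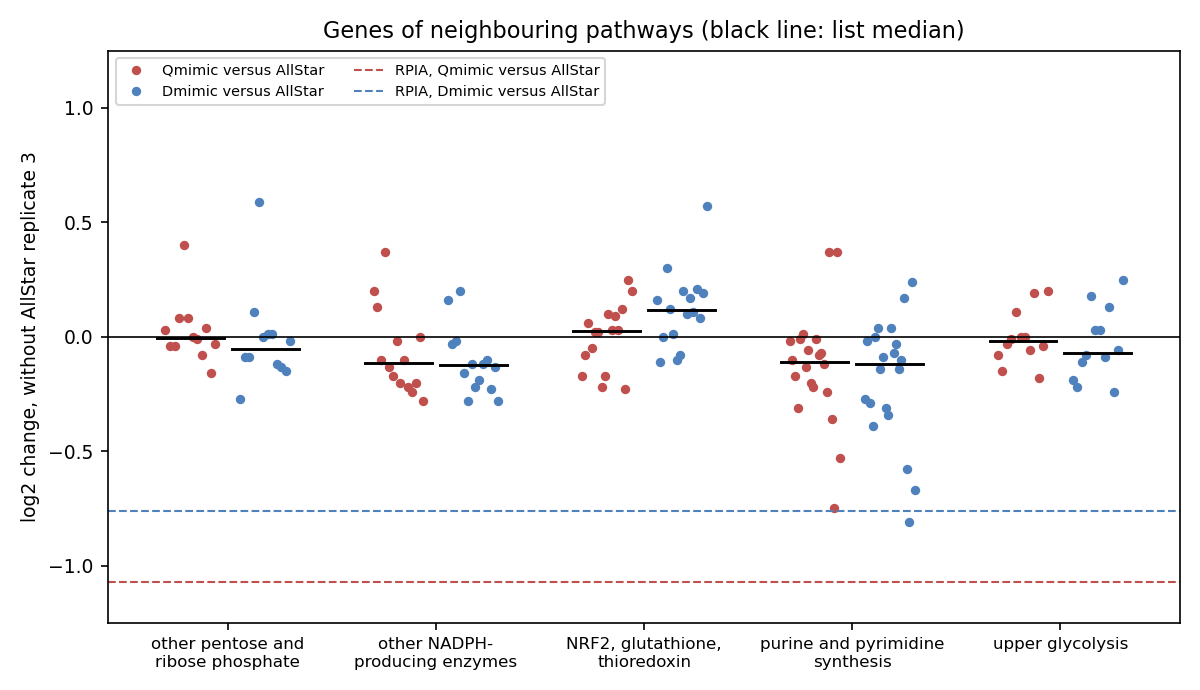
Log2 changes without AllStar replicate 3 are plotted for the genes of 5 neighbouring lists, Qmimic versus AllStar in red and Dmimic versus AllStar in blue, with list medians as black lines and the RPIA changes as dashed lines. Most genes lie within 0.5 of 0; RRM2, at -0.75 and -0.81, lies nearest to the RPIA lines.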

How the data were processed

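Total RNA of 9 wells was hybridised to Affymetrix HG-U133 Plus 2.0 arrays, with an array for each well. The authors deposited log2 values, which they made with RMA per the series text and the submitters' processing notes, which also name limma. Precision is limited by the number of arrays: over all probe sets a change against AllStar carried a 95% interval of ± 0.26 (log2, median).

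The 62 control probe sets were set aside and 54613 tested without a filter on low values in limma 3.58.1 (R 4.3.3): 1 model of 3 groups, eBayes, Benjamini-Hochberg adjustment over all probe sets, called at an adjusted p under 0.05 and at least 1.5-fold. Symbols come from the platform annotation (41091 probe sets with 1 symbol, 1801 with several, 11721 with none). The fit was also run on simulated data with independent noise of the same SD on every array. That run holds no outlying array, so it does not show how the fit deals with AllStar replicate 3. Members and lists were chosen with earlier results of these data known. All member probe sets are described. Of each list the genes with the smallest adjusted p without AllStar replicate 3 are named (up to 3 per mimic), with PRPS1 and PRPS2 added after their values were seen. Arrays that share a replicate number formed 9 pairs, of which 3 correlated above 0.1 in their deviations from the group means (range -0.275 to 0.219). Pairs of unlike number were not compared, so whether the numbers pair the arrays was not settled. The main model has no pairing.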

Additional observations from a re-analysis of the deposited data

How the results depend on the processing

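The limits are the 3 arrays per group, the single probe set of RPIA, and AllStar replicate 3. RPIA stayed negative in every alternative run: with 1 array left out, Qmimic minus AllStar ranged from -1.10 to -0.86, Dmimic minus AllStar from -0.82 to -0.54 and Qmimic minus Dmimic from -0.48 to -0.16. RPIA with Dmimic passed only with array weights (-0.73). With the replicate number as a block, RPIA was -1.02 with Qmimic and -0.70 with Dmimic, and the calls over all probe sets were 1 with Qmimic and 0 with Dmimic. Whether the numbers pair the arrays was not settled. The count of members called with Qmimic, 0 with all 9 arrays, was 1 after repeated quantile normalisation, cyclic loess or array weights. These called 63, 129 and 594 of all 54613 probe sets. With 1 array left out the count was 0 to 1, and it was 1 without AllStar replicate 3, where 295 of all probe sets were called. The member was RPIA each time, and nothing is read from these calls because RPIA was picked in that contrast. With Dmimic the count was 1 (RPIA) with array weights, which called 696 of all probe sets, and 0 otherwise.

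The calls over all probe sets were 0 with Qmimic, 3 with Dmimic and 0 between the mimics. Repeated quantile normalisation gave 63 (27 higher, 36 lower), 103 (58 higher, 45 lower) and 15 (0 higher, 15 lower). Cyclic loess gave 129 (69 higher, 60 lower), 234 (142 higher, 92 lower) and 15, and array weights gave 594 (366 higher, 228 lower), 696 (319 higher, 377 lower) and 58 (9 higher, 49 lower). With only the compared groups in the fit there were 0 with Dmimic and 34 between the mimics. With Dmimic the filter on low values gave 6, the intensity trend 16 and a log2 change of at least 1.5 gave 0. With 1 array left out the calls ranged from 0 to 295, 0 to 472 and 0 to 44, the highest each without AllStar replicate 3; with Dmimic they were 6 without AllStar replicate 2 and 0 without AllStar replicate 1, any 1 Qmimic array, or Dmimic replicate 1 or 3.

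Of the member probe sets other than that of RPIA, none was called in any alternative. With array weights some had an adjusted p under 0.05 at a change below 1.5-fold (limma): PGLS 218388_at (0.21, adjusted p = 0.0471), PGLS 218387_s_at (0.24, adjusted p = 0.0233) and PGD 201118_at (-0.19, adjusted p = 0.0238) with Qmimic, and PGLS 218387_s_at (0.30, adjusted p = 0.0129) with Dmimic. The share of all probe sets with such an adjusted p under array weights is not given here, so nothing is read from these values. After repeated quantile normalisation and cyclic loess these PGLS changes were smaller. With Qmimic they were 0.14 and 0.11 for 218388_at and 0.12 and 0.09 for 218387_s_at (adjusted p = 0.46 to 0.637, limma). With Dmimic they were 0.22 and 0.20 for 218387_s_at (adjusted p = 0.346 and adjusted p = 0.418, limma). The PGD change was larger, -0.28 and -0.33 (adjusted p = 0.153 and adjusted p = 0.126, limma). Member probe sets near 0 changed sign in some alternatives, and the cause was not tested. With Qmimic, PGLS 1554316_at was -0.13 with array weights. RPE 1558519_at was 0.00 after quantile normalisation, 0.01 after cyclic loess and 0.03 after median centring, TKT 208699_x_at -0.02 after quantile normalisation and -0.06 after cyclic loess, and TKT 228205_at 0.04, 0.07 and 0.05 in those 3 and 0.01 with array weights. With Dmimic, PGLS 1554316_at was -0.12 with array weights. PGD 1560942_at was 0.01 after cyclic loess, 0.01 after median centring and 0.02 with array weights, and RPE 221770_at -0.01 after cyclic loess and -0.03 with array weights. RPE 1558519_at was 0.00 after median centring, TKT 208699_x_at -0.04 after quantile normalisation and -0.08 after cyclic loess, and TKT 228205_at 0.04, 0.05 and 0.04 in those 3 and 0.01 with array weights. For Qmimic minus Dmimic, PGLS 1554316_at was 0.01 in those 3, and TKT 228205_at 0.00, 0.01 and 0.01. With 1 array left out, the ranges that crossed 0 were, with Qmimic, -0.11 to 0.22 for PGLS 1554316_at and -0.05 to 0.01 for TKT 228205_at. With Dmimic they were -0.11 to 0.22 for PGLS 1554316_at, -0.13 to 0.08 for PGD 1560942_at, -0.03 to 0.26 for RPE 221770_at, -0.11 to 0.07 for RPE 1558519_at, -0.01 to 0.32 for TKT 208700_s_at, 0.00 to 0.12 for TKT 208699_x_at and -0.10 to 0.03 for TKT 228205_at. Between the mimics they were -0.12 to 0.02 for PGLS 218388_at, -0.06 to 0.03 for PGLS 1554316_at, -0.18 to 0.06 for PGD 1560943_s_at, -0.03 to 0.14 for RPE 225040_s_at, -0.11 to 0.06 for RPE 1558519_at, -0.02 to 0.04 for TKT 208699_x_at and -0.05 to 0.08 for TKT 228205_at. Of the 5 genes most like RPIA, 1 was shared when AllStar replicate 3 was left out.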
